A study of Rattus norvegicus with 4 samples.

Results

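Astrocytes are the glial cells of the brain and spinal cord, and they do not belong to the peripheral nerve. The trigeminal root passes from tissue with astrocytes and oligodendrocytes at the brain stem to nerve wrapped by Schwann cells. The 8 genes described here are Gfap, Aqp4, Mlc1, Gja1, Agt, Aldh1l1, Slc1a2 and Slc1a3, which are widely used to recognise astrocytes. They were taken by symbol from the 32623 genes of the deposited matrix, of which 19895 had a unique molecular identifier (UMI, 1 counted RNA molecule) in any spot. All 8 were found. Their Ensembl identifiers in the files were ENSRNOG00000002919 for Gfap, ENSRNOG00000016043 for Aqp4, ENSRNOG00000032871 for Mlc1, ENSRNOG00000000805 for Gja1, ENSRNOG00000018445 for Agt, ENSRNOG00000047023 for Aldh1l1, ENSRNOG00000005479 for Slc1a2 and ENSRNOG00000016163 for Slc1a3.

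The tissue was the trigeminal root, ganglion and proximal branches of wild type adult male Sprague-Dawley rats, laid on the 4 capture areas of a Visium slide, which reads RNA at spots that each cover several cells. TN1, TN2 and TN3 held the operated side of 1 animal each, after compression of the root on that side as a model of trigeminal neuralgia, and HC held control tissue of 2 animals. The study's methods call the controls sham-operated, while the series description takes HC from the uninjured side of 2 of the TN animals. HC was counted as 1 sample, and condition, capture area and the piece of tissue laid on it cannot be told apart. The areas had between 23546025 UMIs (TN1) and 41335930 (HC) in 6773 spots, and 201355 of all UMIs belonged to the 8 genes. Of 3573 distinct barcode sequences, 2337 occurred in more than 1 area, since a barcode marks a spot position and the same positions recur in every area.

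Gfap forms the intermediate filaments of the astrocyte and is the classic stain for it. Aqp4, a water channel, and Mlc1, a membrane protein mutated in a leukodystrophy with cysts, sit in the endfeet that astrocytes press against vessels and the brain surface. Gja1, connexin 43, forms the gap junctions that couple astrocytes, and it is also made by fibroblasts and meningeal cells. Agt is angiotensinogen, the secreted precursor of angiotensin, which astrocytes make in the brain. Aldh1l1 is an enzyme of folate metabolism. Slc1a2 and Slc1a3 are the glutamate transporters GLT-1 and GLAST, and satellite glia of sensory ganglia also carry Slc1a3 and some Gfap.

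Because the genes moved together over the tissue, their promoters were searched for short motifs known from astrocyte genes. RefSeq windows on GRCr8, from 250 bases before to 50 bases after a start, were held for 7 of the 8 genes. On either strand, the nuclear factor I half-site TTGGCA occurred in 14.0% of 33469 windows, the Stat motif TTCNNNGAA in 8.87% and the Sox motif ACAATG in 13.2%. TTGGCA was found in the windows of 2 of the genes, with 2 matches in Mlc1 and 1 in Slc1a3. The other 2 motifs were in no window of these genes. The Mlc1 and Slc1a3 windows are shown with the matches in capitals, which read TGCCAA on the gene's strand, and Gfap, the classic astrocyte gene, is shown as a window that holds none. Mlc1 lies at chr7:121946649-121946948 on the minus strand, Slc1a3 at chr2:59557759-59558058 on the minus strand and Gfap at chr10:88361612-88361911 on the minus strand.
Mlc1: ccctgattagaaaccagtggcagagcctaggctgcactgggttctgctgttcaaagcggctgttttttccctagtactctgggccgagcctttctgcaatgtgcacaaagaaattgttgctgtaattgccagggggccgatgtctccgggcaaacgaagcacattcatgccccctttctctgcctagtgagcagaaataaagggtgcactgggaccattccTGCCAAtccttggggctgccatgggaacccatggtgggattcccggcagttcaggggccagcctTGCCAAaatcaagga
Slc1a3: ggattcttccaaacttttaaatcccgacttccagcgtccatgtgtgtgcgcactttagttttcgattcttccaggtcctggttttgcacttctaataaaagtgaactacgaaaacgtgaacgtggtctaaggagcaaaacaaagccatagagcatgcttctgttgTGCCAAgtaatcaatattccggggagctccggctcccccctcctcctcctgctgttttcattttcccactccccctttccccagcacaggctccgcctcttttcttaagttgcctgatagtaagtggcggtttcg
Gfap: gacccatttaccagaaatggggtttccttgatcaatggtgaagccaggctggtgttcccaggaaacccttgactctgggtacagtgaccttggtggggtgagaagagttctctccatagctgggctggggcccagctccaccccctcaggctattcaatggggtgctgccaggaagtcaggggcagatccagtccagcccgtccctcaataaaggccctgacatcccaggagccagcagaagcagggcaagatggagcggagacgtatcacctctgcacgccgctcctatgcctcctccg

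To place the genes in the tissue, the spots were grouped into 10 clusters with the 8 genes left out of the clustering. Clusters were named by lists of marker genes, and clusters 1 and 3 stayed unnamed. Cluster 1 held 148, 25, 262 and 388 spots in the order TN1, TN2, TN3, HC, and cluster 3 held 1, 348, 491 and 0. The central myelin region, named by the oligodendrocyte genes Mobp, Mog, Opalin, Ermn, Hapln2, Aspa, Olig1 and Olig2, held 354 spots of TN1, 243 of TN2, 392 of TN3 against 446 of HC. It joined 2 clusters. Cluster 6, which held 274, 199, 336 and 95 spots in the order TN1, TN2, TN3, HC, had Aqp4, Gfap and Mlc1 among its leading genes although they were not used to form it. Cluster 9, with 80, 44, 56 and 351 spots, was led by Sema4d, Klk6 and Mog. TN and HC spots of this region therefore lay largely in different clusters. The brainstem region, named by genes of central neurons, held 402 spots of TN1 and 127 of TN2 and none (0) of TN3 or HC. The ganglion region held 199, 366, 164 and 648 spots of the 4 areas. It joined cluster 4, with 145, 39, 94 and 648 spots in the same order, and cluster 10, with 54, 327, 70 and 0. Cluster 10 was led by Csrp3, Gal and Reg3b. The nerve region, named by Schwann cell myelin genes, reached 20 spots only in TN1 (412) and TN3 (399). In bulk sums over spots, fewer astrocytes and less RNA per astrocyte cannot be told apart.

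The 8 genes were concentrated at the central end of the root. The central myelin region held 9.41% of all UMIs and 100580 of the 201355 UMIs of the 8 genes, while the ganglion held 42.3% of all UMIs and 12.5% of theirs. The unnamed clusters 1 and 3 held 10.1% and 16.1% of all UMIs and 3.4% and 11.4% of those of the 8 genes. In CPM (UMIs scaled to a fixed total per region and area), the summed level in central myelin was 4750 in TN1, 9332 in TN2, 9896 in TN3 against 7137 in HC, which gave 7779 ± 2344 (SD, n = 4). TN1 was the lowest and HC lay inside the range of the TN areas. The sum was 2426 ± 578 in the brainstem (SD, n = 2), 397.8 ± 115 in the ganglion (SD, n = 4) and 556 ± 321 in the nerve (SD, n = 2). Within each area, central myelin stood between 12.8-fold and 26.3-fold above the ganglion, and in TN1 and TN3 it stood 14.4-fold and 12.6-fold above the nerve. These values describe regions made from the same spots and carry no test.

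**Figure D1:**
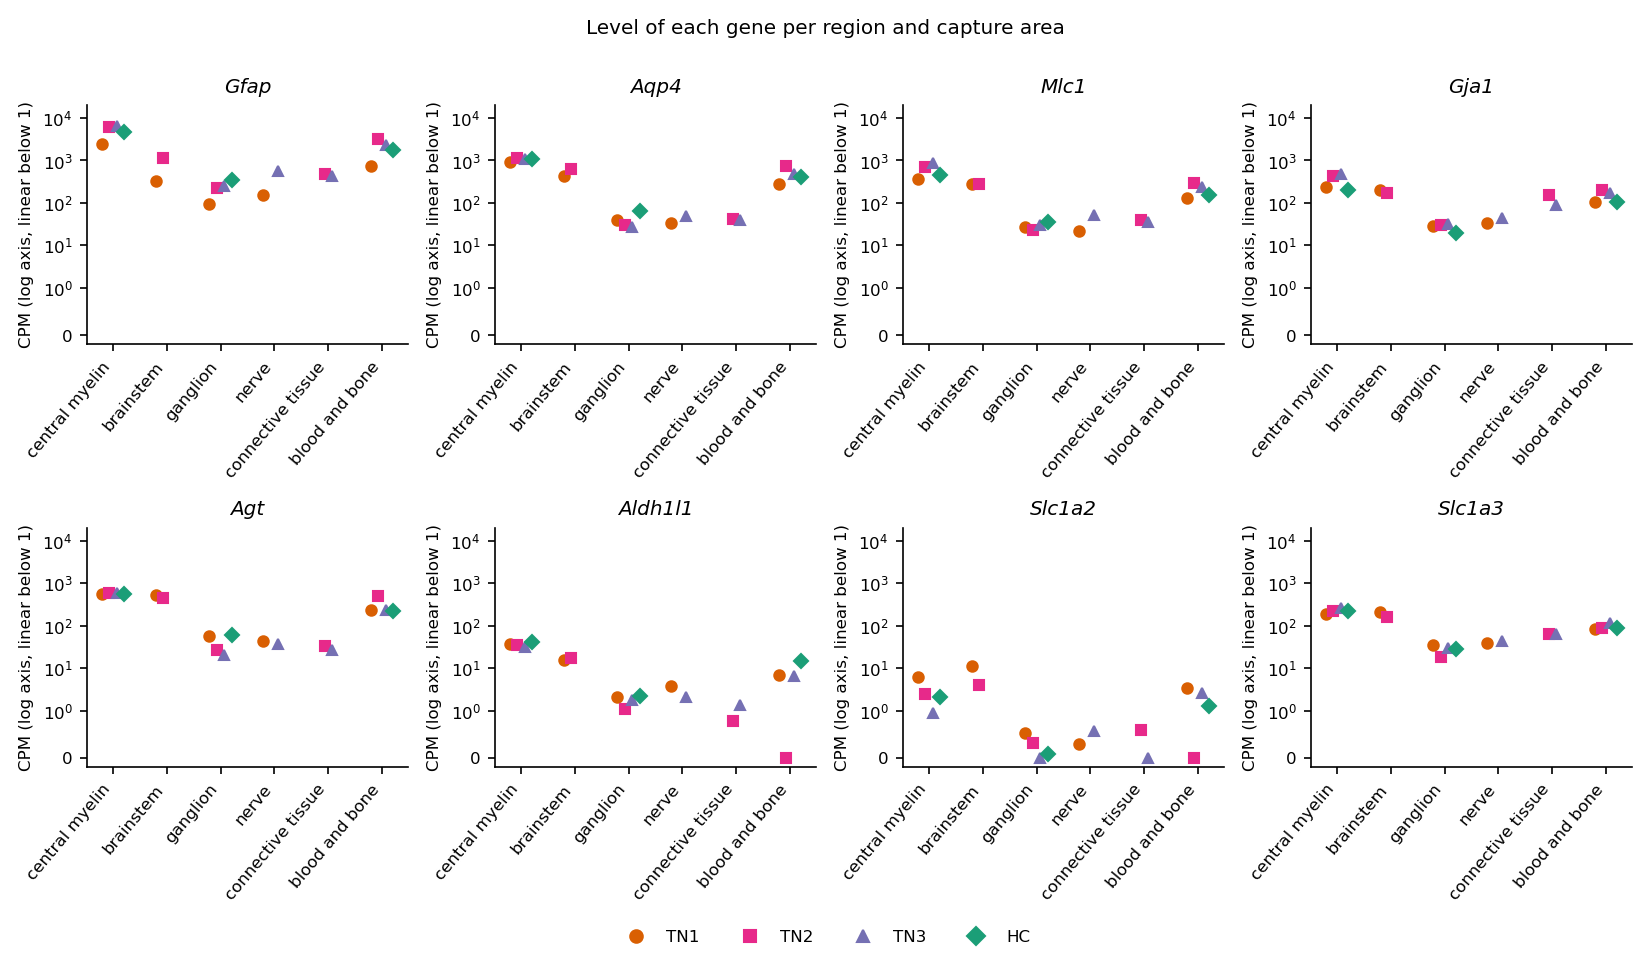
Level of each of the 8 genes in CPM (log axis, linear below 1) in 6 regions, with 1 symbol per capture area that had at least 20 spots of the region. Central myelin was the highest region for 7 of the 8 genes by the mean over areas, and Slc1a2 stayed near or under 10 CPM in all regions.

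Gfap, the filament gene, reached 2431 CPM in TN1, 6227 in TN2, 6570 in TN3 against 4577 in HC in central myelin. The mean was 4951 ± 1892 CPM (SD, n = 4), and TN1 stood below the other areas. In the brainstem it had 329 CPM in TN1 and 1124 in TN2, so that central myelin exceeded brainstem 7.38-fold and 5.54-fold in these areas. The ganglion held 92.9 CPM in TN1, 225 in TN2, 255 in TN3 against 346 in HC, and here TN1 was again the lowest area. The unnamed cluster 3 had 489 to 1083 CPM over TN2 and TN3 and held 13.9% of all Gfap UMIs.

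Aqp4, the water channel, varied little in central myelin, with 930 CPM in TN1, 1140 in TN2, 1109 in TN3 against 1095 in HC. The brainstem had 529 ± 130 CPM (SD, n = 2), and the ganglion between 26.4 and 63.6 CPM over the 4 areas. Within each area, central myelin exceeded the ganglion between 17.2-fold and 42.0-fold. Mlc1, its neighbour in the endfeet, had 373 CPM in TN1, 705 in TN2, 876 in TN3 against 445 in HC in central myelin. TN2 and TN3 stood above TN1 and HC for both genes, but for Aqp4 they exceeded HC by little.

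Gja1, the gap junction gene, had 232 CPM in TN1, 426 in TN2, 476 in TN3 against 198 in HC in central myelin. Every TN area stood above HC. It was also found in the connective tissue region, a region of TN2 and TN3 named by Dcn, Lum and collagen genes, where it had 158 and 88.8 CPM. That region held 8.74% of all Gja1 UMIs and 1.07% of those of Aqp4.

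Agt, the angiotensin precursor, had the smallest SD relative to its mean of the 8 genes in central myelin, which did not hold in the ganglion. It had 550 CPM in TN1, 576 in TN2, 576 in TN3 against 553 in HC in central myelin, 564 ± 14.1 (SD, n = 4). The brainstem came close to it, with 537 CPM in TN1 and 450 in TN2, and central myelin exceeded it by 1.02-fold in TN1 and 1.28-fold in TN2. The ganglion had between 20.9 and 61.3 CPM, 41.4 ± 20.8 (SD, n = 4).

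Aldh1l1, the folate enzyme, was scarce, with 37.7 CPM in TN1, 34.7 in TN2, 31.6 in TN3 against 40.9 in HC in central myelin. It still showed the gradient, with 16.4 ± 1.22 CPM in the brainstem (SD, n = 2) and between 1.09 and 2.18 CPM in the ganglion.

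The 2 glutamate transporters differed in where they were found. Slc1a3 had 190 CPM in TN1, 221 in TN2, 256 in TN3 against 226 in HC in central myelin, and 209 and 163 CPM in the brainstem of TN1 and TN2. These ranges overlapped. Slc1a2 was nearly absent, with 12 UMIs in TN1, 6 in TN2, 3 in TN3 against 11 in HC over all central myelin spots. Of all its UMIs, 54.3% lay in the brainstem, which had 63 UMIs in TN1 and 12 in TN2. In the ganglion of TN3 it had 0 UMIs, which allows at most 0.44 CPM (3 counts, counting error only). Slc1a2 is a defining astrocyte gene, so its counts did not follow the label of the group. How fully its RNA was captured and assigned to the gene was not tested. Kcnj10, an astrocyte potassium channel from the list of endfoot partners, was also scarce, at 0.62 ± 0.49 CPM in central myelin (SD, n = 4).

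By the mean over areas, central myelin was the highest region for 7 of the 8 genes. The brainstem came next for 6 of them, and blood and bone for Gfap. The ranges of central myelin and brainstem overlapped for Gja1 and Slc1a3 and lay apart for Gfap, Aqp4, Mlc1, Agt and Aldh1l1. The ranges of ganglion and nerve, the latter of 2 areas, overlapped for Gfap, Aqp4, Mlc1, Agt, Aldh1l1 and Slc1a2. For Gja1 and Slc1a3 they lay apart, with the nerve higher. The blood and bone region, named by hemoglobin and neutrophil genes, carried a summed level of 1566 CPM in TN1, 5012 in TN2, 3577 in TN3 against 2734 in HC. The 8 central myelin marker genes together stood at 1171, 1808, 1301 and 1179 CPM in the same spots. The spots of this region thus also held RNA of central myelin genes. Whether this was tissue of the root or free RNA was not tested, so the region was not used as a background of free RNA.

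Shares of spots gave the same picture at equal depth. With each spot thinned to 2000 UMIs, which left out 150 shallower spots, Gfap had a UMI in 94.8% to 100% of central myelin spots over the 4 areas, Aqp4 in 71.8% to 87.2% and Mlc1 in 51.9% to 69.9%. In the ganglion the thinned shares were 19.1% to 51.1% for Gfap, 5.46% to 13.1% for Aqp4 and 4.02% to 8.95% for Mlc1. Ganglion spots were deep, with a median of 36460 to 49116 UMIs over the areas, and without thinning 62.8% to 87.8% of them had an Aqp4 UMI. Central myelin spots had a median of 5064.5 to 11225 UMIs, and 91.0% to 98.2% had an Aqp4 UMI. In TN1, the thinned Aqp4 share of central myelin had an exact binomial 95% interval of 66.7% to 76.4%, which covers counting error only.

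The gradient was also present without the clusters, in an order made from the same spots and from genes that also named the regions. Spots with at least 10 UMIs of 6 oligodendrocyte genes (Mobp, Mog, Opalin, Ermn, Hapln2, Aspa) and 4 Schwann cell genes (Prx, Drp2, Ncmap, Egr2) were ordered by the share of these UMIs that came from the 6 central genes. Where this share was under 0.1, the summed level of the 8 genes was 257 CPM in TN1, 419 in TN2, 647 in TN3 against 574 in HC. Where it was over 0.9, the sum was 2524, 6336, 6765 and 6507 CPM. In TN1, 50.7% of the spots over 0.9 belonged to the brainstem region and 42.7% to central myelin. The ratio of these 2 ends was 9.80 in TN1, 15.1 in TN2, 10.5 in TN3 against 11.3 in HC.

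The areas differed in where along this axis the level climbed. In HC the sum stayed between 559 and 844 CPM up to a central share of 0.7 and then stood at 4992 CPM between 0.7 and 0.9. TN1 also stepped up there, with 643 CPM between 0.5 and 0.7 and 2359 CPM in the next bin. The bin from 0.7 to 0.9 held different tissue in the areas. It was largely brainstem in TN1 (67.4%) and TN2 (57.4%), blood and bone in HC (64.8%) and central myelin in TN3 (85.1%). In TN3 the sum was already 2937 CPM between 0.3 and 0.5 and 8973 CPM between 0.5 and 0.7, and TN2 had 1312 and 2166 CPM in these bins. The TN3 sum was highest at 10357 CPM between 0.7 and 0.9 and fell to 6765 CPM over 0.9. The middle bins were thin. With a minimum of 20 UMIs in place of 10, the bin from 0.5 to 0.7 held 5, 11, 5 and 39 spots in the order TN1, TN2, TN3, HC, and the sum was 297, 2986, 13578 and 681 CPM. From 0.3 to 0.5 it was then 2596 CPM in TN2 and 3372 CPM in TN3, the latter in 15 spots. The bin from 0.5 to 0.7 held 35 spots of TN1, 31 of TN2, 39 of TN3 against 117 of HC. Its spots were not the same tissue in each area. Central myelin spots made up 74.4% of it in TN3, ganglion spots 68.6% in TN1 and 51.3% in HC, and connective tissue spots 48.4% in TN2. The 9 macrophage and microglia genes summed to 4252 CPM in this bin in TN3 and to 253 CPM in HC, and their part in the difference was not tested.

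**Figure D2:**
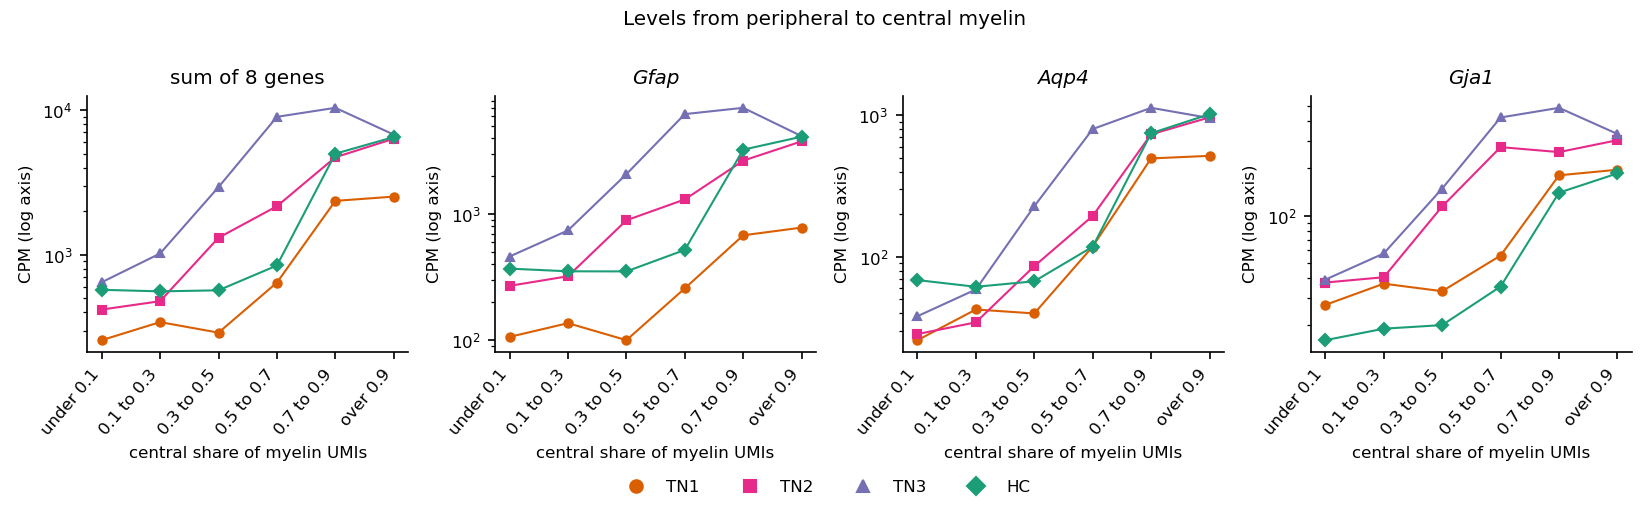
Level in CPM (log axis) of the sum of the 8 genes and of Gfap, Aqp4 and Gja1 in spots ordered by the central share of their myelin UMIs, with 1 line per capture area. All lines end higher than they begin. The TN3 line climbs at a lower central share than that of HC and falls in the last bin.

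The question of the series was how the tissue of the TN model differs from control. In central myelin, edgeR called 0 of the 8 genes between the 3 TN areas and HC, where it called 0 of 10639 genes in all (0%). None (0) of the 8 had an unadjusted p under 0.05, against 529 of all genes, and DESeq2 called 0 of the 8 and 11 of all genes. After TMM normalisation, which scales the areas by their bulk of genes, all 3 TN areas stood above HC for 1 of the 8, Gja1. They stood below HC for 3, Aqp4, Agt and Aldh1l1. Over all genes these shares were 24.2% above and 23.9% below. Before this scaling only Aldh1l1 stood below HC in all 3 TN areas. TN2 and TN3 then stood above HC for Aqp4 (1140 and 1109 against 1095 CPM) and Agt (576 and 576 against 553 CPM).

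After TMM normalisation, Gja1 in central myelin stood at 230 CPM in TN1, 418 in TN2, 469 in TN3 against 210 in HC. All TN areas exceeded HC, TN1 by little. Its log2 fold change was 0.82 with an SE of 0.44 and an adjusted p of 0.913 (edgeR). Gfap had 2409, 6097, 6475 and 4856 CPM, with TN areas on both sides of HC and a log2 fold change of 0.04 (SE 0.57, adjusted p 0.996). For Mlc1, TN1 had 369 CPM, TN2 691, TN3 864 and HC 472. Again the TN areas lay on both sides of HC, with a log2 fold change of 0.44 (SE 0.48, adjusted p 0.939).

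Aqp4 and Agt stayed close to HC in every area. Aqp4 had 922 CPM in TN1, 1116 in TN2, 1094 in TN3 against 1162 in HC, a log2 fold change of -0.16 (SE 0.25, adjusted p 0.953). Agt had 545, 564, 568 and 586 CPM, a log2 fold change of -0.07 (SE 0.23, adjusted p 0.976). Aldh1l1, Slc1a3 and Slc1a2 had log2 fold changes of -0.35, -0.13 and 0.38, with SEs of 0.24, 0.26 and 1.13.

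Leaving out TN1 changed the calls. Without it, the test in central myelin called 945 of 10631 genes (8.89%), and among the members Gja1 alone, with a log2 fold change of 1.09 (SE 0.21, adjusted p 0.0113). The 2 remaining TN areas then carried the spread with 1 residual degree of freedom. The macrophage and microglia genes moved with these areas, with 899 CPM in central myelin of TN1, 1990 in TN2, 2784 in TN3 against 902 in HC, and the 6 connective tissue genes likewise, with 565, 3418, 2171 and 548 CPM. Their part in the Gja1 values was not tested. Within cluster 6 alone, a comparison added after the data were seen, Gja1 had 248, 435 and 488 CPM in the TN areas and 232 CPM in HC (log2 fold change 0.76, SE 0.45, adjusted p 0.919). Within cluster 9 alone it had 198, 355, 287 and 206 CPM, and TN1 stood below HC. Gfap had a log2 fold change of -0.20 (SE 0.54) within cluster 6 and -0.39 (SE 0.41) within cluster 9, both below the 0.04 of the joined region. Aldh1l1 in cluster 6 had 39.5, 29.8, 32.9 and 63.6 CPM, with every TN area below HC (log2 fold change -0.91, SE 0.30, adjusted p 0.919 by edgeR). The HC value of Aldh1l1 rested on 42 UMIs. Within cluster 9 its log2 fold change was -0.21 (SE 0.43).

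**Figure D3:**
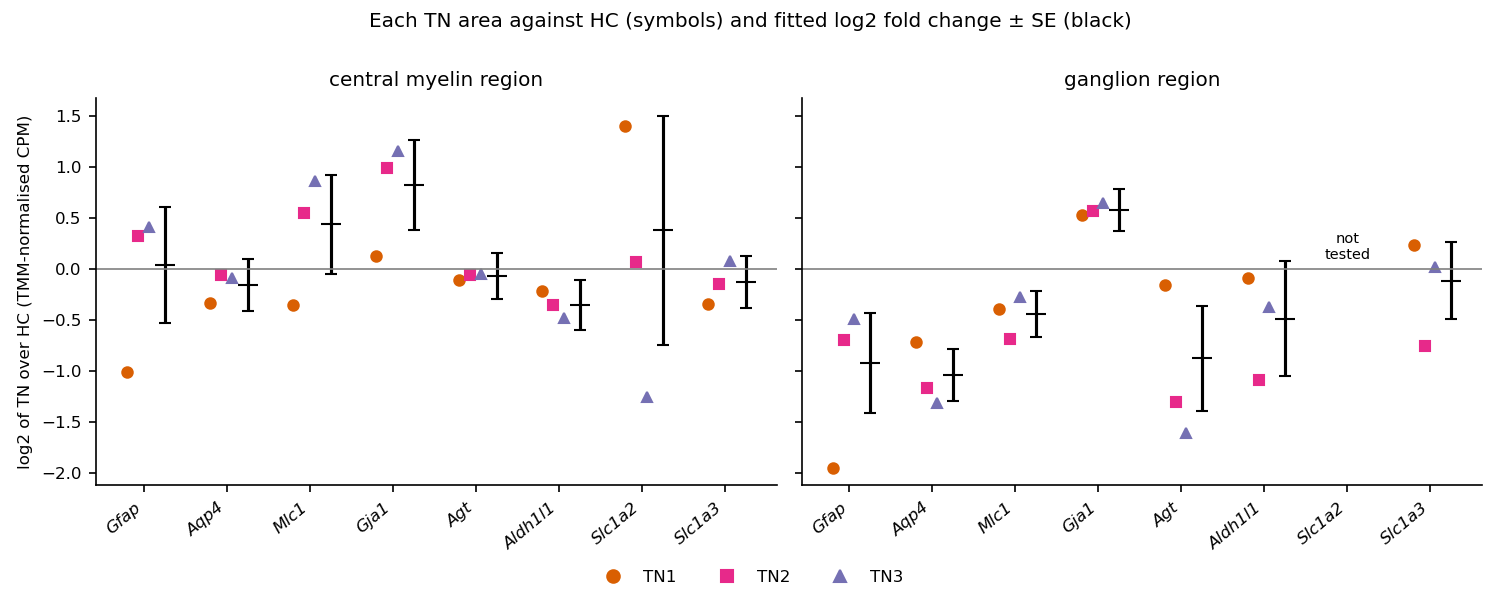
Log2 ratio of each TN area to HC for the 8 genes (symbols) and the fitted log2 fold change with its SE (black) in the central myelin and ganglion regions. Gja1 is the gene with all 3 TN areas above HC in both regions, and TN1 lies apart from TN2 and TN3 for Gfap.

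In the ganglion, 7 of the 8 genes had enough counts to be tested, and Slc1a2 did not. EdgeR called 0 of the 7, as of all 12819 genes (0%), with 2 of the 7 and 1172 of all genes reaching an unadjusted p under 0.05. By DESeq2 0 of the 7 and 119 of all were called. All 3 TN areas stood below HC for 5 of the 7, Gfap, Aqp4, Mlc1, Agt and Aldh1l1, and above HC for 1, Gja1. Over all genes, 29.3% stood below and 27.9% above. All HC spots of this region lay in cluster 4, while TN2 spots lay largely in cluster 10. The part of this in the values was not tested.

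Aqp4 in the ganglion had 39.95 CPM in TN1, 29.3 in TN2, 26.4 in TN3 against 65.7 in HC after TMM normalisation. HC was the highest area, at a level far under that of central myelin, and the log2 fold change was -1.04 (SE 0.26, adjusted p 0.54). Gfap had 92.5, 219.9, 254 and 357 CPM, also highest in HC (log2 fold change -0.92, SE 0.49, adjusted p 0.574). Gja1 had 28.9, 29.6, 31.3 and 19.99 CPM, with the 3 TN areas close together and above HC (0.58, SE 0.21, adjusted p 0.54). The 8 central myelin genes summed to 173 CPM in the ganglion of TN1, 91.3 in TN2, 74.0 in TN3 against 205 in HC. They stood highest in HC as Aqp4 did, and their part in it was not tested. Per UMI of these central myelin genes, the ganglion held 0.309 Aqp4 UMIs in HC and 0.232, 0.328 and 0.357 in TN1, TN2 and TN3. HC lay inside the range of the TN areas, as it did for Gfap (1.68 against 0.537, 2.47 and 3.44). It also did for Mlc1 (0.17 against 0.161, 0.253 and 0.406) and Agt (0.298 against 0.331, 0.287 and 0.282). For Aldh1l1 HC was lowest, at 0.0106 against 0.0123, 0.0119 and 0.0237. The 8 genes together had 1.65, 3.88, 5.35 and 2.71 in TN1, TN2, TN3 and HC. In central myelin they had 1.79, 4.46, 5.83 and 2.67. For Gja1 the same ratio was 0.094 in HC and 0.168, 0.333 and 0.424 in TN1, TN2 and TN3. Without TN1 the ganglion test called 543 of 12908 genes (4.21%), among them Aqp4 (log2 fold change -1.24, adjusted p 0.0136) and Agt (-1.44, adjusted p 0.00828).

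Whether the contrast of TN and HC differed between central myelin and ganglion was tested with an interaction term, in a fit that kept each capture area as a block. EdgeR called 3 of 12478 genes (0.024%), and 0 of the 8. Gfap differed between the regions by 1.01 on the log2 scale (SE 0.26, unadjusted p 0.00423 in the fit across all genes, adjusted p 0.766), Aqp4 by 0.96 (SE 0.36, adjusted p 0.766), Agt by 0.99 (SE 0.52, adjusted p 0.78) and Mlc1 by 0.86 (SE 0.45, adjusted p 0.784). The other 4 differed by -1.21 to 0.24. All 4 named differences are positive, since these genes stood lower against HC in the ganglion than in central myelin. Both regions join clusters that hold TN and HC spots in unlike shares, and the part of this was not tested. The level of central myelin genes in the ganglion also differed between the areas, as given above, and its part was not tested. Without TN1, 199 of 12151 genes were called (1.64%), among them Aqp4, Mlc1 and Agt with differences of 1.24, 1.26 and 1.47.

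Over all spots, Gja1 had 91.0 CPM in TN1, 85.2 in TN2, 95.2 in TN3 against 52.5 in HC after TMM normalisation. The TN areas lay close together and above HC, and the log2 fold change was 0.79 (SE 0.22, adjusted p 0.556). EdgeR called 0 of 14902 genes over all spots (0%), where 1271 had an unadjusted p under 0.05. By DESeq2 144 were called. Without TN1, 2171 of 14692 genes were called (14.8%), Gja1 among them (0.78, adjusted p 0.0431). The share of connective tissue spots differs between the areas, since that region had 109 spots of TN2, 52 of TN3, 1 of TN1 and none (0) of HC, and its part was not tested. In the nerve region no test was run, since TN2 had 13 spots and HC 18, under the minimum of 20. With 8 clusters or with spots classed by marker sums the minimum was met, and 0 of 10350 and 0 of 11036 genes were called, with 1480 and 1895 at an unadjusted p under 0.05.

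The make-up of the group changed between regions. Relative to Aqp4, Gfap had 2.61 UMIs per Aqp4 UMI in central myelin of TN1, 5.46 in TN2, 5.92 in TN3 against 4.18 in HC. The brainstem had 0.753 in TN1 and 1.81 in TN2, under the central myelin of the same areas. The ganglion had 2.32, 7.51, 9.65 and 5.43, and TN1 was the area with the lowest ratio in each of the 3 regions. The unnamed cluster 3 had 11.6 in TN2 and 15.8 in TN3. Between brainstem and central myelin, Agt moved the other way from Gfap. It had 1.23 and 0.725 UMIs per Aqp4 UMI in the brainstem of TN1 and TN2 and 0.592 and 0.505 in central myelin of the same areas.

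Mlc1, Gja1, Agt and Slc1a3 had higher ratios to Aqp4 in the ganglion than in central myelin in every area. For Agt the ganglion had 0.79 to 1.43 UMIs per Aqp4 UMI and central myelin 0.504 to 0.592. For Mlc1 the ganglion had 0.55 to 1.14 and central myelin 0.401 to 0.79. In central myelin Gja1 had 0.249, 0.374, 0.429 and 0.181 UMIs per Aqp4 UMI in TN1, TN2, TN3 and HC. In the ganglion it had 0.724, 1.01, 1.19 and 0.304, higher in every area, and in connective tissue 3.70 in TN2 and 2.25 in TN3. For Slc1a3 central myelin had between 0.194 and 0.231 and the ganglion between 0.454 and 1.15. In the blood and bone region Gja1 had 0.261 to 0.367 and Slc1a3 0.123 to 0.298. There Gja1 stood below central myelin in TN2 (0.284) and TN3 (0.367) and above it in TN1 and HC, and Slc1a3 stood below it in TN2 and above it in the other areas.

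**Figure D4:**
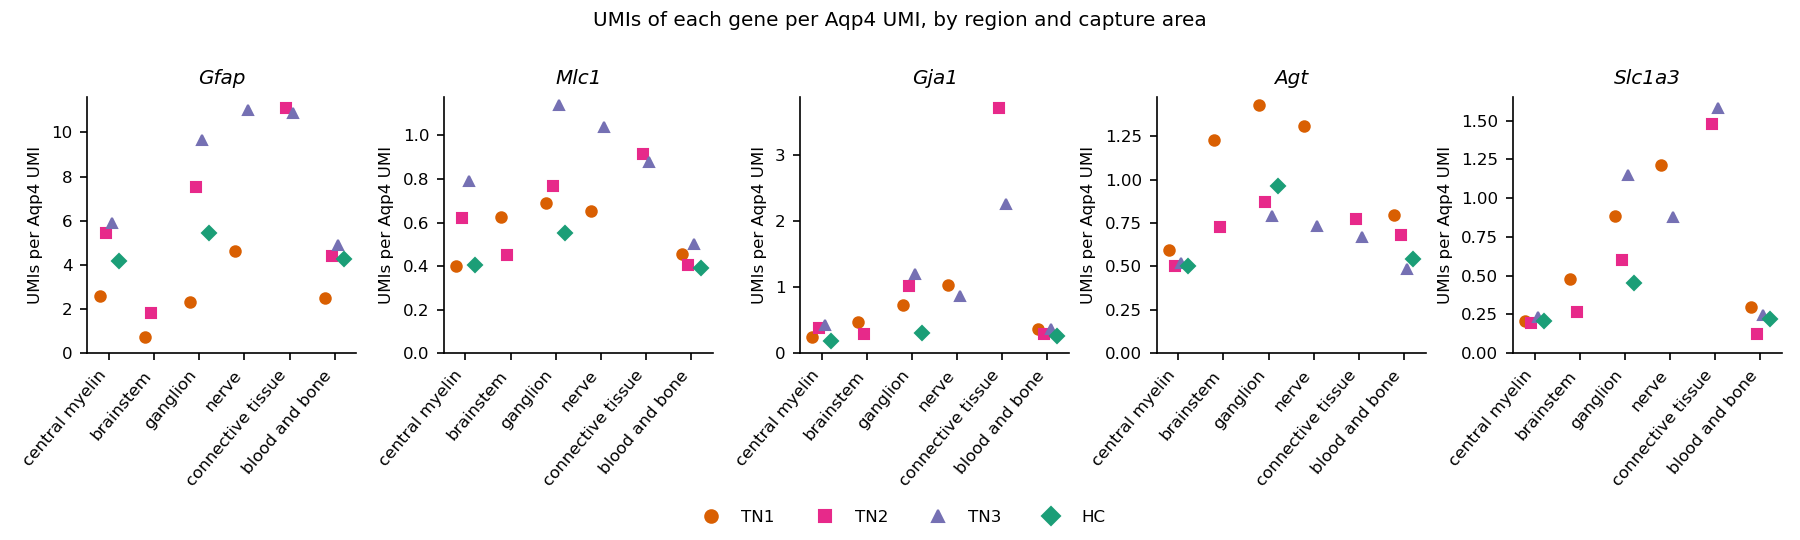
UMIs of Gfap, Mlc1, Gja1, Agt and Slc1a3 per Aqp4 UMI in 6 regions, with 1 symbol per capture area (linear axes from 0). Gfap per Aqp4 is lowest in the brainstem, and Gja1 per Aqp4 is highest in connective tissue at 3.70 in TN2 and 2.25 in TN3.

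Within the central myelin region the genes still varied together from spot to spot. Over the spots of an area, the median Pearson correlation of the 28 pairs, on log2 of UMIs per 10000 plus 1, was 0.15 in TN1, 0.25 in TN2, 0.23 in TN3 against 0.27 in HC. The strongest pairs were Aqp4 with Mlc1 (0.44, 0.43, 0.35 and 0.56), Aqp4 with Agt (0.35, 0.50, 0.34 and 0.57) and Gfap with Aqp4 (0.44, 0.53, 0.29 and 0.48). Slc1a2 and Aldh1l1 had 0 UMIs in most spots. In the ganglion the medians were 0.07 or less, and over all spots of an area they were 0.36 to 0.60. Spots of an area share a library and differ in depth, and with each spot thinned to 2000 UMIs the mean over areas fell from 0.225 to 0.098. In the nerve of TN3 the median was 0.26 and Gfap and Aqp4 correlated at 0.59, while in the nerve of TN1 the median was 0.08.

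**Figure D5:**
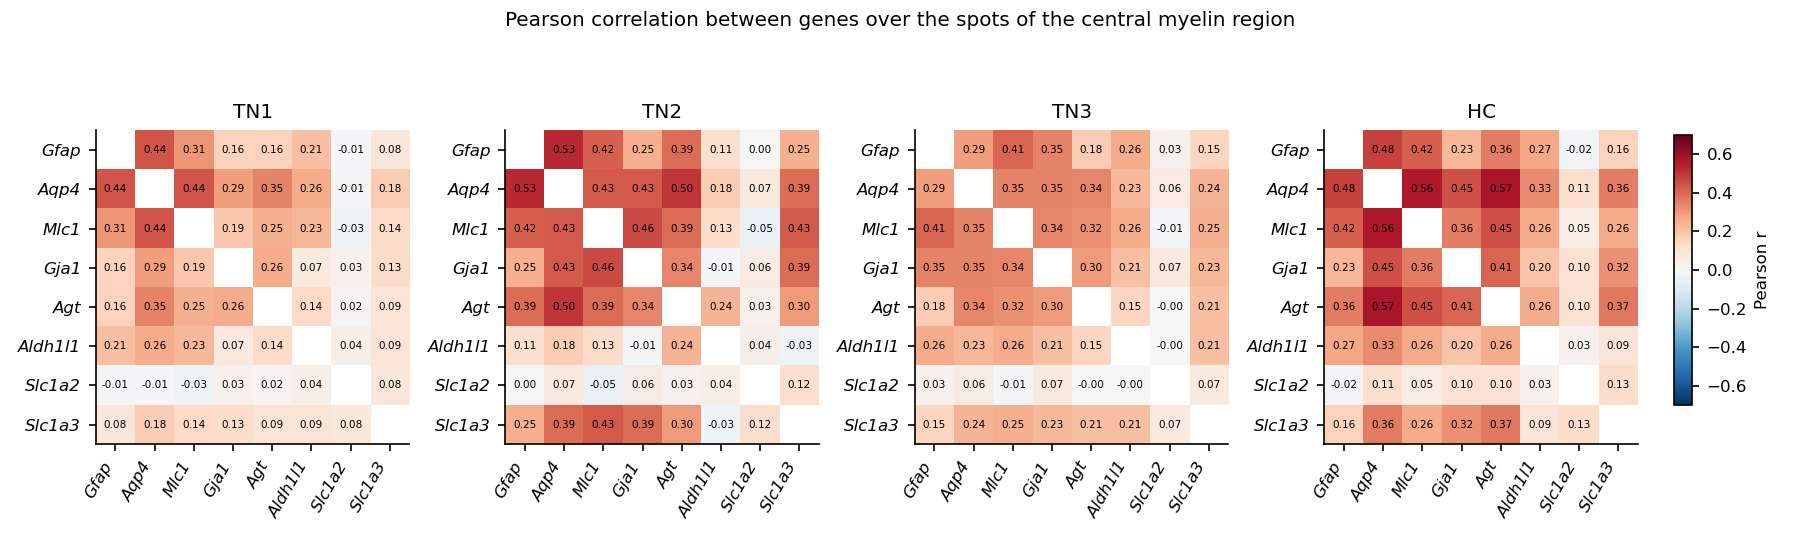
Pearson correlations between the 8 genes over the central myelin spots of each capture area (354 of TN1, 243 of TN2, 392 of TN3 against 446 of HC), on log2 of UMIs per 10000 plus 1. Aqp4 with Mlc1 reaches 0.35 to 0.56, and the pairs of Slc1a2 lie between -0.05 and 0.13.

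Over all spots, the genes most like the mean of the 8 were looked for among 7829 genes with a UMI in at least 10% of the spots of every area, ranked by the lowest of the 4 within-area correlations. Aldh1l1 and Slc1a2 were too sparse to enter. Of the members, Aqp4 led with 0.86, then Agt and Mlc1 with 0.79, Gfap with 0.71, Gja1 with 0.69 and Slc1a3 with 0.64, each being part of the mean it was compared with. The 10 other genes ranked highest included Aplp1 (0.69), Tf (0.69), Sparcl1 (0.67), Cldn11 (0.65), Mobp (0.63), Mog (0.61), Mbp (0.59), Pla2g7 (0.59) and Mag (0.58). Cldn11, Mobp and Mog are myelin genes of oligodendrocytes, Mbp and Mag are shared with Schwann cells, and Sparcl1 is made by astrocytes. Oligodendrocytes and astrocytes both lie in the central root, and a spot covers several cells. Sparcl1 had 2439 ± 238 CPM in the brainstem (SD, n = 2) and 1506 ± 295 CPM in central myelin (SD, n = 4), which was the order opposite to that of Aqp4.

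Other astrocyte genes from a list of 17 were called in 0 of the 15 tested in central myelin, with 1 above HC in all 3 TN areas (6.67%) and 3 below (20%), where 24.2% and 23.9% of all genes were. Their levels had differing profiles over the regions. Slc7a10, an amino acid exchanger of astrocytes, had 138 ± 19.3 CPM in the brainstem (SD, n = 2) and 15.3 ± 12.8 in central myelin (SD, n = 4). Slc39a12, a zinc transporter, had 23.6 ± 6.61 and 39.5 ± 22.0 CPM in the same regions, which overlapped. Aldoc, a glycolytic enzyme, had 1715 ± 567 CPM in the brainstem, 1156 ± 133 in central myelin and 859 ± 216 in the ganglion, a much flatter profile than that of the 8 genes.

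Of 18 tested genes of a reactive astrocyte list, edgeR called 0 in central myelin, while 13 stood above HC in all 3 TN areas (72.2%, against 24.2% of all genes) and 2 below (11.1%, against 23.9%), with a median log2 fold change of 1.76 against 0.05 over all genes. Vim, an intermediate filament gene of many cell types, had 417 CPM in TN1, 2463 in TN2, 4370 in TN3 against 268 in HC (log2 fold change 3.17, SE 1.33, adjusted p 0.913). Timp1, a protease inhibitor, had 63.7, 441, 456 and 45.8 CPM. TN2 and TN3 stood apart from TN1 and HC for both genes, as they did for Gja1 and Mlc1. In the ganglion, where the 8 genes were scarce, 11 of 18 of the list stood above HC in all 3 TN areas (61.1%, against 27.9% of all genes). Many genes of the list are also made by macrophages and fibroblasts. In central myelin the connective tissue and the macrophage and microglia sums given above were higher in TN2 and TN3 than in TN1 and HC. In the ganglion the macrophage and microglia genes summed to 496, 1312, 748 and 207 CPM in TN1, TN2, TN3 and HC, and the connective tissue genes to 1084, 3349, 2526 and 1066 CPM. Their part in the counts of the list was not tested. Vim was highest in connective tissue, at 6501 ± 1736 CPM (SD, n = 2).

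Partners of the 8 genes were read from lists by role, and edgeR called 0 of them in central myelin. Their counts above and below HC stand against 24.2% and 23.9% of all genes there, and each list is short. Of the endfoot partners, 8 of 10 were tested, and 4 stood above HC in all 3 TN areas and 2 below. Dag1, the dystroglycan that anchors endfeet to the basement membrane, had 290 ± 97.4 CPM in central myelin (SD, n = 4) and 1355 ± 13.1 in the nerve (SD, n = 2), where Schwann cells also make it. Of 9 other connexins 6 were tested, with 3 above and 2 below. Among those below was Gjb1, a connexin of oligodendrocytes and Schwann cells, with 337, 276, 280 and 565 CPM in TN1, TN2, TN3 and HC. This region joins cluster 6, mostly of TN spots, with cluster 9, mostly of HC spots. Gjb1 had 233, 204, 234 and 298 CPM within cluster 6 (log2 fold change -0.41) and 563, 563, 655 and 605 CPM within cluster 9 (log2 fold change -0.03). Gjb6, the other astrocyte connexin, had 51.3, 61.6, 31.5 and 21.3 CPM, all TN areas above HC like Gja1 (log2 fold change 1.17, SE 0.43, adjusted p 0.913).

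For the glutamate genes, 10 of 11 were tested, with 2 above and 1 below. Glul, the glutamine synthetase of astrocytes and satellite glia, had 472 ± 89.2 CPM in central myelin (SD, n = 4), 588 ± 164 in the brainstem (SD, n = 2) and 148 ± 17.5 in the ganglion (SD, n = 4). Of the genes of the angiotensin pathway 4 of 10 were tested, with 3 above and none (0) below. In central myelin the converting enzyme Ace had 0.13 ± 0.25 CPM and the receptor Agtr1a 1.19 ± 0.89 (SD, n = 4), both at a few counts per area. Of the folate genes 6 of 11 were tested, with 1 above and 2 below, and Mthfd1 had 45.7 ± 5.10 CPM in central myelin (SD, n = 4) and 23.5 ± 2.80 in the ganglion (SD, n = 4).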

How the data were processed

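Spatial gene expression of 4 capture areas was analysed (TN1, TN2, TN3 and HC). The authors deposited UMI counts per gene and spot, without normalization, in 1 matrix made with Space Ranger 1.2.0. STAR is named as aligner, and the sources used here name neither a genome build nor an annotation. Areas were taken from the number after each barcode, 1 to 3 for TN1 to TN3 and 4 for HC, the order in which the series description lists them. The sample labels do not state this order, and every value per area rests on it. The counts of 16088 genes seen in at least 10 spots were transformed with SCTransform (Seurat 5.3.0, sctransform 0.4.2). The members were left out of the 3000 variable genes, 30 principal components were computed, and K-means with 50 starts gave 10 clusters. A cluster took the name of the marker list with the highest mean of log2 (CPM + 5), centred over the clusters, and stayed unnamed within 0.25 of the next list. UMIs were summed per region and area and tested with edgeR 4.0.16 (quasi-likelihood, TMM, filterByExpr, Benjamini-Hochberg over all genes, threshold 0.05) in R 4.3.3. The fit had 2 residual degrees of freedom, and HC was assumed to vary like the TN areas. No batch other than the area is given. Levels between regions are CPM without a test, and spots were not replicates.

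The alternatives were DESeq2 1.42.0, its size factors in edgeR, no filter, each area left out, hemoglobin, ribosomal protein and mitochondrial genes removed, 8 or 12 clusters, members kept in the clustering, spots classed by marker sums, Spearman correlations, thinning and another minimum of UMIs. Clusters 6 and 9 apart, and areas left out along the myelin share, were added after the data were seen. Scripts were tested on simulated data. No doublet caller was run on spots, and images were not used. The members and all gene lists were chosen with earlier results of these data known. Genes named are the 8 members, the genes of these lists and the 10 genes most like the members, of which a few are not reported here. Pecam1, Ly6c1 and Serpina3n were not found by symbol.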

Additional observations from a re-analysis of the deposited data

How the results depend on the processing

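The count of genes called between TN and HC was sensitive to the areas used. Leaving out each TN area in turn gave 0 to 945 calls in central myelin, 0 to 543 in the ganglion, 0 to 2171 over all spots and 1 to 199 for the difference between central myelin and ganglion, with the highest count without TN1 in each case. Without TN2 there were 29 calls in the ganglion and 1 for the difference between regions. In cluster 6 alone the range was 0 to 459, and in cluster 9 alone 14 to 137 (18 without TN2, 14 without TN3, 0 with all areas). DESeq2 gave 11 calls in central myelin, 119 in the ganglion, 144 over all spots and 1 in cluster 6. Without a filter on low counts there were 21 calls in the ganglion and 72 for the difference between regions. The cause was not tested.

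With hemoglobin, ribosomal protein and mitochondrial genes removed, the summed level of the members in the brainstem was 3272 CPM in place of 2426, since the total was smaller. The mean of the median correlations in central myelin was 0.098 with thinned spots in place of 0.225, and without each area it lay between 0.211 and 0.249. Without thinning, the mean share of central myelin spots with an Aqp4 UMI was 94.9% in place of 80.1%. The summed level in central myelin lay between 7073 and 8788 CPM without each area.

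The log2 fold change of Gfap in central myelin, 0.04 with all areas, lay between -0.186 and 0.383 without each TN area (-0.128 without TN2, -0.186 without TN3), and was -0.312 with 12 clusters, where a further cluster of 204 spots had Mlc1 and Gfap among its leading genes, and -0.024 with marker sums. That of Agt turned from -0.07 to 0.033 with marker sums, and that of Slc1a3 in the ganglion, -0.11 with all areas, lay between -0.341 (without TN1) and 0.149 (without TN2). Of 227 alternative values of members, 6 turned direction, 9 passed the threshold, all 9 without TN1, and 212 kept both. No paired analysis was possible because the labels give HC no number that a TN area shares. With 1 HC area, its own spread is unknown, and the counts of Slc1a2 and Aldh1l1 are too few for small differences.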
